A study of Mus musculus with 10 samples.

Results

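The 10 genes described here move bile acids and cholesterol through the enterocyte, and were followed in RNA sequencing of jejunal epithelial cells from MYO5B-knockout mice. They are 10 of the 35275 genes in the deposited table: Slc10a2, Fabp6, Slc51a, Slc51b and Fgf15 for bile acids, and Npc1l1, Soat2, Abcg5, Abcg8 and Abca1 for cholesterol. The choice was by name, with earlier results of these data known. Levels are in FPKM, the fragments counted on a gene scaled to its length and to the library's total, so that genes can be compared. Genes were tested where the 10 libraries averaged 0.1 FPKM or more, which 9 of 10 members reached and Fgf15 did not.

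All 10 mice were C57BL/6, are given as adult males in the labels, and carried VillinCreERT2 with MYO5Bflox/flox. VillinCreERT2 is a Cre recombinase under the villin promoter, which is active in the intestinal epithelium and removes the floxed Myo5b segments only after tamoxifen. The 3 control mice (mice 2, 4 and 5) were left uninduced and received corn oil. The 4 MYO5B-knockout mice (mice 3, 5, 6 and 7) received 2 mg tamoxifen and the vehicle of lysophosphatidic acid, 0.1% bovine serum albumin in phosphate-buffered saline. The 3 LPA-treated MYO5B-knockout mice (mice 1, 4 and 5) received 2 mg tamoxifen and intraperitoneal lysophosphatidic acid (LPA), a signaling phospholipid, at 3 mg/kg. For mouse 1 of this group the labels conflict: its description names vehicle and then LPA, and its title placed it with the LPA-treated mice, so its treatment is uncertain. Cells were isolated on day 4. Tamoxifen, the vehicle or LPA given beside it, and loss of MYO5B cannot be told apart in the comparisons with control mice.

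Bile acids return to the liver mainly from the distal small intestine. SLC10A2 takes them up across the brush border, FABP6 binds them in the cytosol, and the SLC51A and SLC51B subunits together release them across the basolateral membrane, whereas the hormone FGF15 tells the liver to make less. Cholesterol enters enterocytes along the whole small intestine through NPC1L1, is esterified by SOAT2 for chylomicrons, and leaves either to the lumen through the ABCG5 and ABCG8 pair or across the basolateral membrane through ABCA1. MYO5B is a motor protein that carries recycling vesicles to the apical membrane, where several of these transporters work.

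Between 10949420 and 24470409 reads per library lay on genes. Control mouse 2 and MYO5B-knockout mouse 3 stood apart: they had 12242 and 12601 detected genes and 17.4% and 18.0% mitochondrial reads, against 17309 to 18267 genes and 1.98% to 3.50% in the other 8 libraries. MYO5B-knockout mouse 3 and LPA-treated mouse 1 also went against the label male, with 8.41 and 15.1 FPKM of Xist while 4 Y-linked genes had 0 reads. Myo5b itself lay at 16.5 to 32.0 FPKM in control mice, 10.5 to 13.6 FPKM in MYO5B-knockout mice and 10.3 to 11.7 FPKM in LPA-treated mice. Its log2 fold changes of FPKM + 0.1 against control were -0.96 and -1.10, and neither passed (limma's adjusted p = 0.115 and 0.0939). Results are therefore given for all libraries and for the 8 libraries without control mouse 2 and MYO5B-knockout mouse 3, which leaves 2 control mice. Epithelial markers were abundant everywhere, with Epcam at 628 to 1151 FPKM. The summed FPKM of 9 listed leukocyte markers was 1089 to 2099 in control, 38.3 to 836 in MYO5B-knockout and 109 to 200 in LPA-treated mice, most of it Cd74, which epithelium can also express, and 1 of 8 tested markers passed the test in each comparison with control. Ptprc, which marks all leukocytes, was at 0.367 to 3.39 FPKM in control, 0.158 to 1.57 in MYO5B-knockout and 0.434 to 1.19 in LPA-treated mice. In bulk RNA, fewer cells of a type and less RNA per cell cannot be told apart, and the part of these differences in the results below was not tested.

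In control mice the transport genes spanned a wide range of levels, and the order by mean FPKM was Slc51a, Soat2, Npc1l1, Slc51b, Abcg5, Abcg8, Abca1, Fabp6, Slc10a2 and Fgf15. The ranges of neighbours in that order overlapped except between Slc51a and Soat2 and between Abcg8 and Abca1. Slc51a ranked 572 and Soat2 746 among the 35275 genes by mean FPKM over all libraries, whereas Slc10a2 ranked 9450. In MYO5B-knockout mice Npc1l1 stood below Abcg8 rather than above Slc51b, and every pair of neighbours overlapped except Abca1 and Fgf15. In LPA-treated mice Abcg5 stood clear of Abcg8, and Npc1l1 of Slc10a2. The jejunum therefore expressed the basolateral bile acid exporter at high levels beside very little of the ileal uptake system.

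Slc10a2 encodes the sodium-dependent bile acid transporter of the brush border, a gene of the ileum. Its values in control mice 2, 4 and 5 were 0, 0.518 and 0.596 FPKM (0, 13 and 17 reads). Among the MYO5B-knockout mice 3, 5, 6 and 7 it was 0.168, 3.52, 2.64 and 2.42 FPKM, from 3, 99, 88 and 89 reads. In LPA-treated mice 1, 4 and 5 it was 2.61, 3.30 and 1.57 FPKM, from 104, 93 and 34 reads. Of the tamoxifen-treated libraries, 6 of 7 lay above every control library, and the exception was MYO5B-knockout mouse 3, with few detected genes. The log2 fold change of FPKM + 0.1 between MYO5B-knockout and control mice was 2.20 (standard error 0.98) and did not pass (limma's adjusted p = 0.276). Over the 8 libraries it was 2.16 and passed, so that Slc10a2 rose in that comparison (limma's adjusted p = 0.0276, with 4.95% of all genes tested passing). LPA-treated mice lay above control mice without overlap, as they did for 20.5% of all genes tested, by 2.83 over all libraries (limma's adjusted p = 0.208) and by 1.92 over the 8 libraries (limma's adjusted p = 0.026, with 8.56% of all genes passing). Between LPA-treated and MYO5B-knockout mice the log2 difference was 0.63 with a 95% interval from -1.53 to 2.78, and -0.24 over the 8 libraries. The 0 reads in control mouse 2 allow a level of up to 0.167 FPKM, the worth of 3 reads, which covers counting error only.

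The deposited coordinates put Slc10a2 (ENSMUSG00000023073) on chromosome 8 from 5085623 to 5105232, minus strand (GRCm38).

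Fabp6 encodes the cytosolic ileal bile acid binding protein. The 3 control values were 3.40, 1.08 and 0.358 FPKM, from 18, 8 and 3 reads. The MYO5B-knockout values were 11.1, 2.30, 1.12 and 1.76 FPKM, the highest in mouse 3. LPA-treated mice had 0.938, 0.121 and 2.35 FPKM, so that the 3 groups overlapped, with MYO5B-knockout mouse 3 above and LPA-treated mouse 4 below every other library. The log2 fold change between MYO5B-knockout and control mice was 1.17 (95% interval -1.08 to 3.43, limma's adjusted p = 0.587). With 1 to 58 reads per library and the spread between mice, the data leave room for any difference within this interval.

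Fgf15 encodes the hormone that ileal enterocytes release when bile acids arrive. It had 0 reads in each of the 10 libraries, which allows up to 0.0678 to 0.151 FPKM depending on the library. No fold is given because both sides of each comparison are at the floor. Slc10a2, Fabp6 and Fgf15 are genes of the ileum, and all 3 were low or unseen in every group of these cells labelled as jejunum.

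Slc51a and Slc51b encode the basolateral exporter that needs both subunits. Slc51a was at 213, 225 and 225 FPKM in control mice, a mean of 221 ± 7.01 (SD, n = 3). In MYO5B-knockout mice it was 141, 84.0, 101 and 121 FPKM, a mean of 112 ± 24.7 (SD, n = 4). In LPA-treated mice it was 88.3, 128 and 112 FPKM, a mean of 109 ± 19.9 (SD, n = 3). Every tamoxifen-treated library lay below every control library, which for 6.2% of all genes tested was also so in the MYO5B-knockout comparison and for 6.38% in the LPA comparison. Against control, the log2 fold change was -1.01 for MYO5B-knockout and -1.03 for LPA-treated mice, and neither passed over all libraries (limma's adjusted p = 0.0714 and 0.0856). Over the 8 libraries Slc51a fell in both, at -1.16 and -1.06 on the log2 scale (limma's adjusted p = 0.0364 and 0.0319).

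The control mice 2, 4 and 5 had 87.9, 117 and 85.5 FPKM of Slc51b. MYO5B-knockout mice 3, 5, 6 and 7 had 11.8, 21.9, 43.0 and 66.5 FPKM. The LPA-treated mice had 25.1, 33.4 and 41.7 FPKM. Again no tamoxifen-treated library reached a control library, as for 6.2% of all genes tested in the MYO5B-knockout comparison and 6.38% in the LPA comparison. The MYO5B-knockout mice, however, spread over a wide range. Against control, MYO5B-knockout mice differed by -1.71 and LPA-treated mice by -1.55 on the log2 scale (limma's adjusted p = 0.117 and 0.187), and over the 8 libraries -1.33 and -1.61 (limma's adjusted p = 0.121 and 0.0691). With libraries put on 1 scale through the median ratio of their genes, the first was -1.997 and passed (limma's adjusted p = 0.0449). Slc51b (chromosome 9, 65412753 to 65422773, GRCm38) shares 2101 bases with Rasl12 on the opposite strand, whose reads amounted to 8.93% of those of Slc51b, and whether counting used strand is not given in the sources used here.

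**Figure D1:**
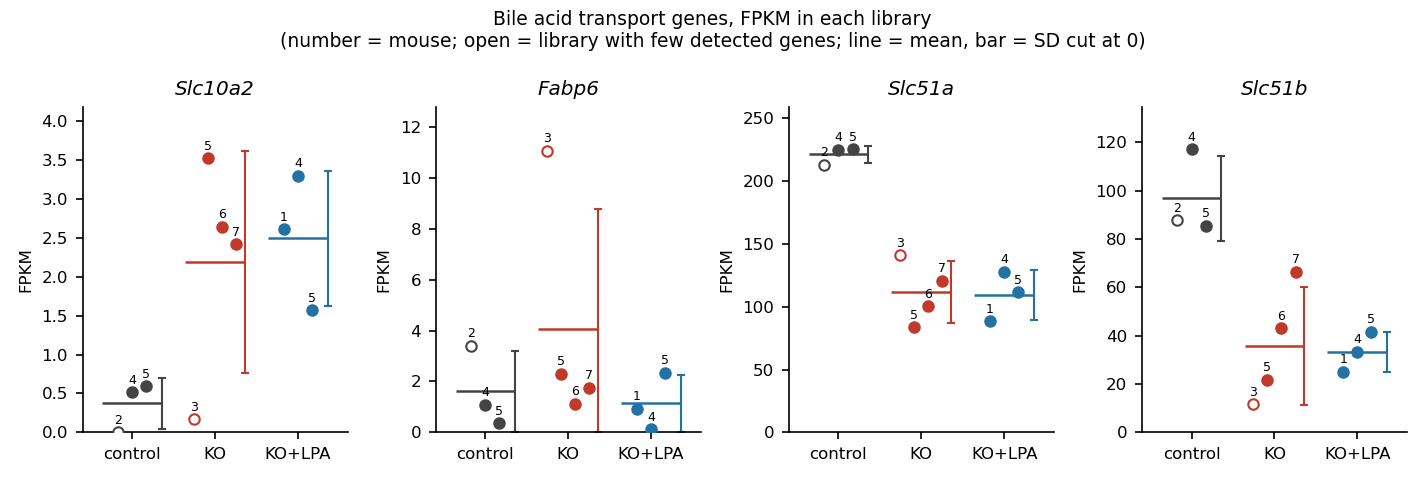
FPKM (vertical axis, linear, from 0) of 4 bile acid transport genes in each library of the control, MYO5B-knockout (KO) and LPA-treated MYO5B-knockout (KO+LPA) groups. Numbers name mice, open points are control mouse 2 and knockout mouse 3, lines are group means and bars the SD, cut at 0. Slc51a and Slc51b lay below all control libraries in every tamoxifen-treated mouse, whereas Slc10a2 lay above all of them in 6 of 7. Of all genes tested, 6.2% in MYO5B-knockout and 6.38% in LPA-treated mice lay below control without overlap, and 20.5% in LPA-treated mice lay above.

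The balance of the 2 subunits was read as the ratio of their FPKM within a library. Slc51a exceeded Slc51b by 2.42, 1.92 and 2.64 times in control mice, 12.0, 3.84, 2.34 and 1.82 times in MYO5B-knockout mice, and 3.52, 3.83 and 2.68 times in LPA-treated mice. The ratios of LPA-treated mice lay just above those of control mice, with an exact two-sided permutation p of 0.1, the smallest that 3 against 3 mice allow, and 0.229 after Benjamini-Hochberg adjustment over the 6 ratio comparisons made. For MYO5B-knockout against control mice the groups overlapped (exact permutation p = 0.514, adjusted 0.771), and the ratio of 12.0 belonged to mouse 3.

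Npc1l1, the brush border cholesterol transporter blocked by ezetimibe, showed the widest difference among the cholesterol genes. Its values were 47.4, 169.9 and 163 FPKM in control mice 2, 4 and 5. MYO5B-knockout mice 3, 5, 6 and 7 were at 8.59, 22.5, 48.5 and 56.5 FPKM. The LPA-treated mice 1, 4 and 5 had 25.6, 22.0 and 12.0 FPKM. All LPA-treated libraries lay below all control libraries, as they did for 6.38% of all genes tested. Control mouse 2, a library with few detected genes, overlapped with MYO5B-knockout mice 6 and 7. Over all libraries its log2 fold change against control was -2.02 for MYO5B-knockout (standard error 0.67, limma's adjusted p = 0.153) and -2.53 for LPA-treated mice (standard error 0.72, limma's adjusted p = 0.106). Over the 8 libraries Npc1l1 fell, and the log2 differences were -2.07 and -3.13 (limma's adjusted p = 0.0455 and 0.0105). It also passed after median-ratio scaling (-2.31 and -2.90, limma's adjusted p = 0.0406 and 0.0238). Between LPA-treated and MYO5B-knockout mice the difference was -0.51 (95% interval -2.01 to 0.98).

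The 150 bases before the RefSeq start of Npc1l1 (GRCm38.p6, chr11:6230246-6230395, minus strand) are shown because they hold a core site of nuclear receptors, the class of the bile acid and oxysterol sensors, AGGTCA, in capitals as its reverse complement:
Npc1l1: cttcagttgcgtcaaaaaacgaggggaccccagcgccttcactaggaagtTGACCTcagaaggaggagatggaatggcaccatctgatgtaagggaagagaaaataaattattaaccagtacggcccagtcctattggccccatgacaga
Of the 8 of 10 members with a RefSeq promoter entry, Slc51a, Slc51b and Npc1l1 held this site on either strand in the 250 bases before the start, as did 4607 of all 32851 such windows. A match describes letters in the sequence and was not tested as a site. The inverted repeat of the bile acid receptor FXR (AGGTCA, any base, TGACCT), the direct repeat of the oxysterol receptors LXR (a pair of AGGTCA with 4 bases between), the HNF4 motif CAAAGTCCA and the CDX motif TTTATGG, searched on both strands and present in 2, 5, 126 and 797 windows, were in no member's window, which says only that these letters are not there.

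Soat2 encodes the enzyme that esterifies absorbed cholesterol. Control mice 2, 4 and 5 had 115, 147 and 169 FPKM. The MYO5B-knockout mice had 62.9, 86.4, 107 and 117 FPKM, and the LPA-treated mice 92.7, 119 and 85.5 FPKM. The knockout groups overlapped with control mice only through control mouse 2, the lowest control, and overlapped with each other. The log2 fold changes against control were -0.64 and -0.53 and did not pass over all libraries (limma's adjusted p = 0.278 and 0.418) or over the 8 libraries (-0.61 and -0.68, limma's adjusted p = 0.13 and 0.0946). With DESeq2 on recovered read counts they were -0.92 and -0.89 and passed (DESeq2's adjusted p = 0.00776 and 0.022), where 13.2% and 10.7% of all genes tested passed.

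Abcg5 and Abcg8 encode the 2 parts of the pump that returns sterols to the lumen. For Abcg5 the control mice had 22.7, 94.9 and 83.8 FPKM, the MYO5B-knockout mice 15.7, 119, 48.0 and 32.9 FPKM, and the LPA-treated mice 81.9, 90.5 and 53.8 FPKM. Abcg8 was at 9.46, 44.9 and 40.7 FPKM, then 7.60, 78.2, 33.3 and 22.8 FPKM, and then 49.0, 35.7 and 19.1 FPKM in the same mice. Both were lowest in the 2 libraries with few detected genes and highest in MYO5B-knockout mouse 5. No group stood apart, and the log2 fold changes of MYO5B-knockout against control mice were -0.44 (95% interval -1.92 to 1.04) for Abcg5 and 0.0045 (95% interval -1.70 to 1.71) for Abcg8, the latter with its sign turned under both scalings tried. The intervals leave room for a difference of over 1 on the log2 scale in either direction.

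The pair is arranged head to head on chromosome 17, Abcg5 from 84658234 to 84683011 on the minus strand and Abcg8 from 84676302 to 84700333 on the plus strand. The short stretch between the start of Abcg5 and the downstream RefSeq start of Abcg8 is shown because it holds 2 GATA motifs, AGATAA, given in capitals as reverse complements (GRCm38.p6, chr17:84683012-84683120, plus strand, 109 bases):
Abcg5-Abcg8: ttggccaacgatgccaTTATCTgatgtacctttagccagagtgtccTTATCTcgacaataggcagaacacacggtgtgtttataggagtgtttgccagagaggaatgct
A GATA motif was present in 9.99% of all upstream windows. Among the members it was in those of Abcg5 and of the downstream start of Abcg8, which share this stretch. The window before the other RefSeq start of Abcg8, at 84676302, held 0 matches. Whether the stretch acts on either gene was not tested. Across libraries Abcg5 and Abcg8 had a Pearson r of 0.945 over 10 libraries and 0.822 over 8, given as a description. As annotated, the genes overlap by 6710 bases on opposite strands, so their reads cannot be told apart there unless counting used strand. Within a library Abcg5 exceeded Abcg8 by 2.40, 2.11 and 2.06 times in control mice, 2.07, 1.52, 1.44 and 1.44 times in MYO5B-knockout mice, and 1.67, 2.53 and 2.82 times in LPA-treated mice. The lower ratios of MYO5B-knockout mice did not pass (exact permutation p = 0.114, adjusted 0.229, against a smallest possible p of 0.0571).

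Abca1 encodes the basolateral cholesterol exporter and a target of the LXR receptors. Its level was low: the control mice had 0.203, 2.51 and 2.21 FPKM, the MYO5B-knockout mice 0.365, 2.19, 1.36 and 0.791 FPKM, and the LPA-treated mice 0.900, 0.479 and 0.768 FPKM. The lowest value of each of the first 2 groups belonged to a library with few detected genes. Over all libraries the log2 fold changes against control were -0.17 and -0.62, and over the 8 libraries they were -0.77 and -1.63 (limma's adjusted p = 0.327 and 0.0715), so that none passed.

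**Figure D2:**
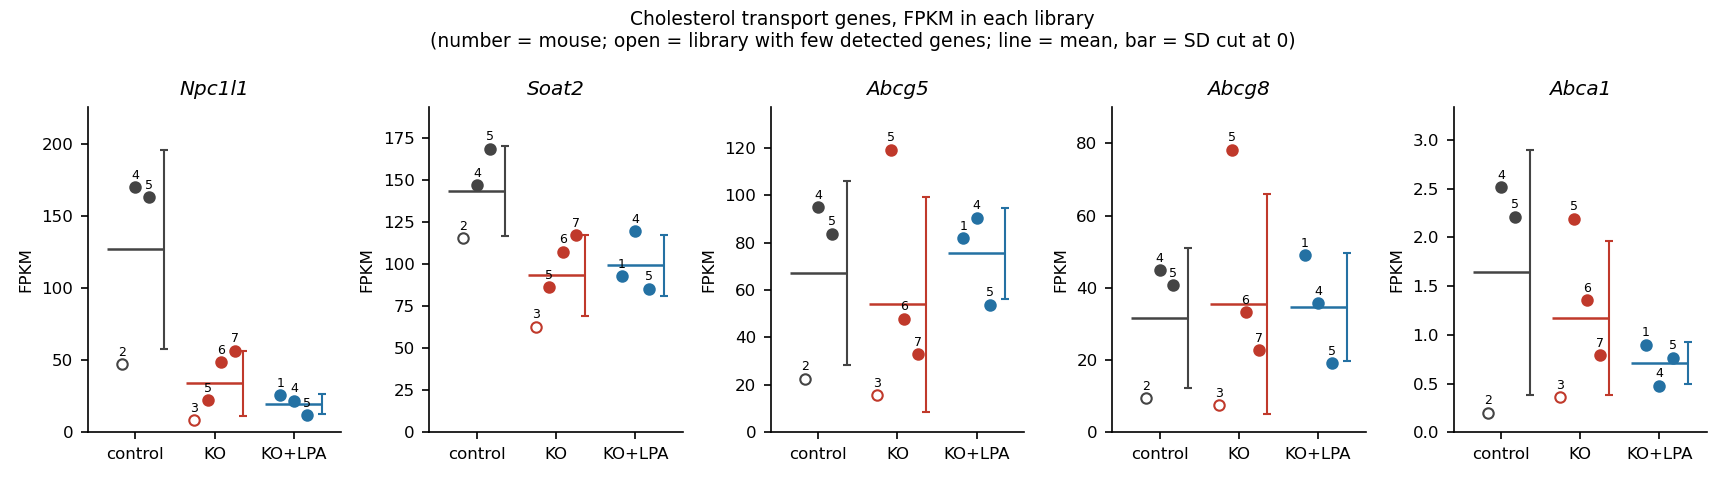
FPKM (vertical axis, linear, from 0) of 5 cholesterol transport genes in each library of the 3 groups. Numbers name mice, open points are control mouse 2 and knockout mouse 3, lines are group means and bars the SD, cut at 0. Npc1l1 lay at 12.0 to 25.6 FPKM in LPA-treated mice against 47.4 to 169.9 FPKM in control mice, whereas the groups overlapped for Abcg5, Abcg8 and Abca1. In that comparison 6.38% of all genes tested lay below control without overlap.

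**Figure D3:**
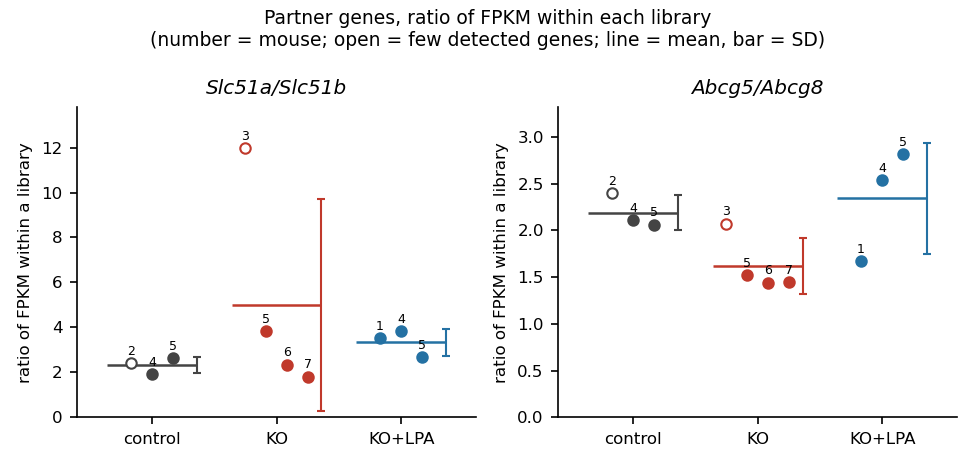
Ratio of FPKM within each library (vertical axis, linear, from 0) for the exporter subunits Slc51a and Slc51b and the sterol pump parts Abcg5 and Abcg8. Numbers name mice, open points are the 2 libraries with few detected genes, lines are means and bars the SD; knockout mouse 3 stands at 12.0 for Slc51a/Slc51b.

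Across the whole set, 0 of 9 tested members passed an adjusted p of 0.05 in limma between MYO5B-knockout and control mice over all libraries, where 2.01% of all 15729 genes tested did. The same count, 0 of 9, was found between LPA-treated and control mice, where 2.32% of genes passed. In both comparisons 6 of the 9 tested members had a lower point estimate, and their median log2 fold changes were -0.44 and -0.59, beside 0.29 and 0.41 for all genes tested. Without control mouse 2 and MYO5B-knockout mouse 3, Npc1l1 and Slc51a were lower and Slc10a2 higher in both comparisons, where 4.95% and 8.56% of all genes passed, and the other members did not pass. Both comparisons share the control mice. Without LPA-treated mouse 1 alone, whose label conflicts, no member passed in any comparison, and Npc1l1 was at -2.75 against control (limma's adjusted p = 0.178). With median-ratio scaling the median of all genes moved to 0.039 and 0.104, and that of the members to -0.74 and -0.91. Npc1l1 and Slc51b then passed between MYO5B-knockout and control mice, and Npc1l1 alone of the members between LPA-treated and control mice (3.8% and 3.12% of all genes passing). Npc1l1 also passed between LPA-treated and control mice with quantile normalization and in edgeR (-2.66 and -2.91, adjusted p = 0.0386 in limma and 0.0339 in edgeR, with 3.98% and 2.4% of genes passing), whereas no member passed between MYO5B-knockout and control mice in either (5.11% and 2.82% of genes passing). DESeq2 called Npc1l1, Slc51a, Slc51b and Soat2 lower in both, where 13.2% and 10.7% of genes passed. Without the 2 libraries that went against the label male, Slc51a passed between MYO5B-knockout and control mice (-1.13, limma's adjusted p = 0.0478, with 2.01% of genes passing), and no member did between LPA-treated and control mice (1.93% of genes passing). Without control mouse 2, MYO5B-knockout mouse 3 and LPA-treated mouse 1, Npc1l1, Slc51a and Slc10a2 passed in both (8.1% and 12.1% of genes passing).

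Between LPA-treated and vehicle-treated MYO5B-knockout mice, 0 of 9 tested members passed (limma's adjusted p = 1 for each), as did 0 of all genes tested, with 459 genes at an unadjusted p under 0.05. edgeR called 0 genes and DESeq2 called 6, none of them a member. Without those same 3 libraries 1.25% of genes passed, again without a member, and DESeq2's calls were 0.0386% of its genes. The groups overlapped for all 9 members, while 4.16% of all genes tested had groups that stood apart. The narrowest intervals were those of Slc51a (-0.02 on the log2 scale, 95% interval -0.59 to 0.55) and Soat2 (0.11, 95% interval -0.52 to 0.75), and the widest that of Fabp6 (-1.76, 95% interval -4.01 to 0.49).

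**Figure D4:**
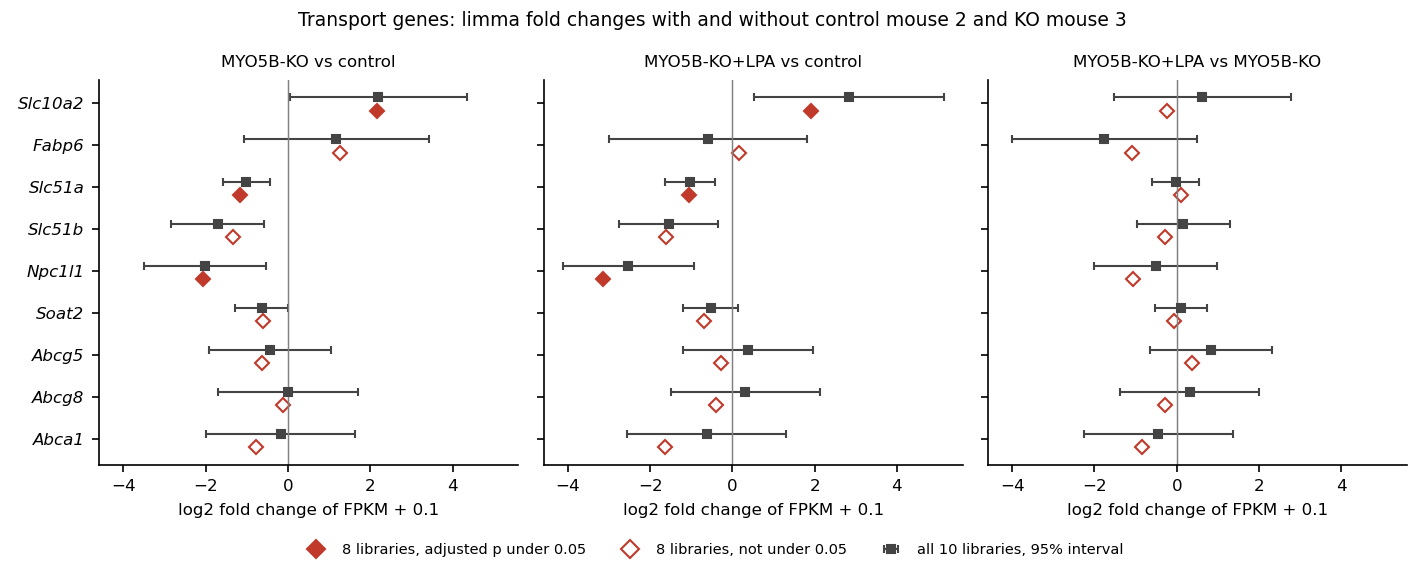
Log2 fold change of FPKM + 0.1 (horizontal axis) of the 9 tested members in the 3 comparisons. Squares and bars are limma estimates with 95% intervals over all 10 libraries, and diamonds are estimates over 8 libraries, filled where the adjusted p was under 0.05. Filled diamonds stand at Slc10a2, Slc51a and Npc1l1 in both comparisons with control and at no gene between the 2 knockout groups.

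Genes that sense bile acids were compared next. Of a list of 10, 8 were tested, and 1 fell between MYO5B-knockout and control mice: Vdr, a nuclear receptor of vitamin D that also binds the bile acid lithocholic acid. It was at 63.0 ± 7.79 FPKM (SD, n = 3) in control, 21.6 ± 8.11 FPKM (SD, n = 4) in MYO5B-knockout and 17.2 ± 5.39 FPKM (SD, n = 3) in LPA-treated mice, so that it differed from control by -1.62 and -1.90 on the log2 scale (limma's adjusted p = 0.0485 and 0.0326). Fgfr4, the receptor of FGF15, rose between control and LPA-treated mice from 0.567 ± 0.237 to 4.70 ± 1.36 FPKM (SD, n = 3 each), by 2.88 on the log2 scale (limma's adjusted p = 0.045), and was 2.41 higher in MYO5B-knockout mice without passing (limma's adjusted p = 0.0639). Nr1h4, which encodes the bile acid receptor FXR, was at 11.6, 24.1 and 29.6 FPKM on average in the 3 groups and did not pass. The median of the list was -0.44 between MYO5B-knockout and control mice. Over the 8 libraries Fgfr4 also passed in MYO5B-knockout mice, and Rxra, which encodes the partner of these receptors, was lower in LPA-treated mice.

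Of 14 genes of bile acid efflux and metabolism, 11 were tested. None passed between MYO5B-knockout and control mice, where the median was -0.32. Between LPA-treated and control mice 2 rose: Abcc4, an exporter of organic anions, by 2.52 to 1.27 ± 0.389 FPKM (SD, n = 3; limma's adjusted p = 0.034) and Cyp3a13, a drug and steroid oxidizing cytochrome, by 1.79 to 1251 ± 440.0 FPKM (SD, n = 3; limma's adjusted p = 0.0477). Cyp3a13 did not pass over the 8 libraries (limma's adjusted p = 0.0562), where Cyp3a11, another cytochrome of this family, was lower in both comparisons with control. Abcc4 did not pass with quantile normalization, and Cyp3a13 did not pass with median-ratio scaling.

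Of 19 genes of cholesterol trafficking and lipoproteins, all 19 were tested and 1 fell in both comparisons with control. This was Nr1h3, which encodes the oxysterol receptor LXR alpha, at 55.8 ± 18.0 FPKM (SD, n = 3) in control, 17.7 ± 6.09 FPKM (SD, n = 4) in MYO5B-knockout and 14.3 ± 1.41 FPKM (SD, n = 3) in LPA-treated mice. Its log2 fold changes were -1.67 and -1.91 (limma's adjusted p = 0.0323 and 0.0197). The list median was 0.14 and 0.079, and turned to -0.15 and -0.29 under median-ratio scaling. Nr1h3 did not pass under that scaling between MYO5B-knockout and control mice.

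The sterol-regulated list holds genes of sterol synthesis and of its SREBP regulators, among them Scap, the sterol-sensing escort protein, and Srebf1, which LXR receptors switch on when oxysterols are abundant. All 7 had a higher point estimate in both comparisons with control, with medians of 0.64 and 1.06 beside 0.29 and 0.41 for all genes, and all 7 stayed higher under both scalings tried and over the 8 libraries. Under median-ratio scaling the medians were 0.34 and 0.69. Hmgcs1, an early enzyme of cholesterol synthesis, rose between LPA-treated and control mice from 56.1 ± 8.998 to 137 ± 9.64 FPKM (SD, n = 3 each; limma's adjusted p = 0.0323) and was 0.98 higher in MYO5B-knockout mice without passing (limma's adjusted p = 0.067). The other 6 genes did not pass in either comparison over all libraries, and over the 8 libraries Sqle, which encodes squalene epoxidase, rose in both. Hmgcs1 did not pass under median-ratio scaling.

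Regional genes of the enterocyte were compared because several members belong to the ileum. Of 16 tested genes of the distal enterocyte, 2 fell between MYO5B-knockout and control mice and 2 between LPA-treated and control mice, with list medians of -1.55 and -1.75. Amn, the partner of cubilin in vitamin B12 uptake, fell by 2.38 in MYO5B-knockout mice (limma's adjusted p = 0.0178), and the peptidase gene Naaladl1 fell in both, at -2.99 and -3.02 on the log2 scale (limma's adjusted p = 0.0379 and 0.0438), but did not pass over the 8 libraries (limma's adjusted p = 0.0592 and 0.0581) or, in LPA-treated mice, with median-ratio scaling. Mep1a, a brush border metalloprotease, fell by 3.29 in LPA-treated mice (limma's adjusted p = 0.045). Between 13 and 14 of the 16 genes had a lower point estimate in each comparison with control under every scaling tried, and over the 8 libraries 3 and 5 passed. Slc10a2 thus had the opposite sign to the list median, as did 2 and 3 of the 16 genes in the 2 comparisons. The list is not confined to genes that are low in jejunum. In control mice Clec2h averaged 512 and Naaladl1 167 FPKM, and Plb1 0.0552 FPKM, beside 0.371 FPKM for Slc10a2. Of 12 proximal genes, 3 passed in both comparisons with control. Lct, which encodes lactase, was at -8.32 and -9.23 on the log2 scale (limma's adjusted p = 0.00935 and 0.00661). Apoc3, an apolipoprotein gene, was at -2.68 and -2.25 (limma's adjusted p = 0.02 and 0.0434), the latter at 0.0501 over the 8 libraries and not passing with median-ratio scaling. Cybrd1, which encodes a duodenal ferric reductase, rose and was at 3.31 and 4.82 (limma's adjusted p = 0.031 and 0.00724), but did not pass over the 8 libraries in MYO5B-knockout mice (limma's adjusted p = 0.0627).

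None of 8 enterocyte transcription factor genes passed in any comparison. The 3 with the highest mean FPKM were Hnf4a, Cdx2 and Klf5, at 0.41, -0.32 and 0.74 on the log2 scale between MYO5B-knockout and control mice (limma's adjusted p = 0.837, 0.576 and 0.563). Between the 2 knockout groups no gene of these 7 lists passed. Of the 18 calls of list genes, those of Lct and Cybrd1 in LPA-treated mice passed in all 10 fits that left out 1 mouse. Lct in MYO5B-knockout mice was lost only without control mouse 5, and Amn was lost without control mouse 5 or MYO5B-knockout mice 5 or 6. The other 14 calls passed in 1 to 6 of the 10 fits, with no change of sign, and control mouse 5 was among the mice whose removal ended each of them. The lists were chosen with earlier results of these data known, and their medians are descriptions.

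**Figure D5:**
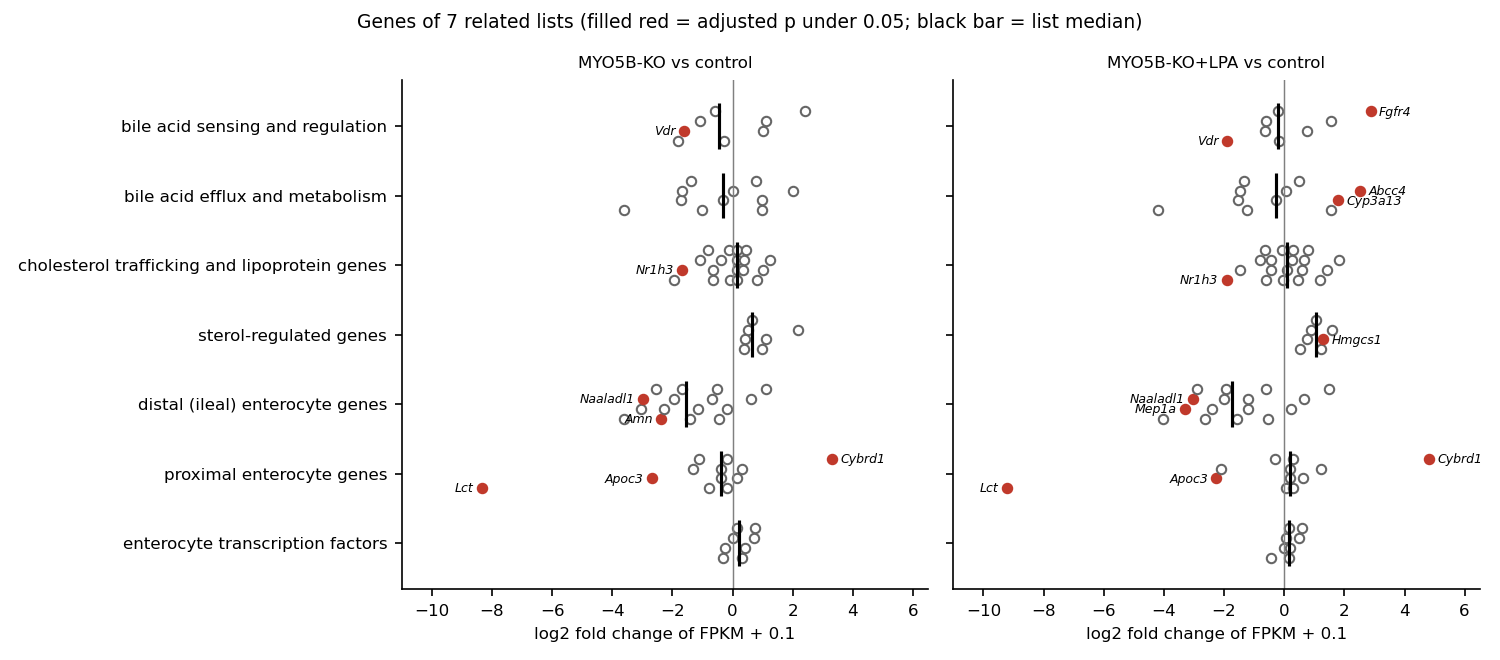
Log2 fold change of FPKM + 0.1 (horizontal axis) of each tested gene of 7 related lists (rows) in the 2 comparisons with control. Filled red points passed an adjusted p of 0.05 in limma and are named, open points did not pass, and black bars are list medians. All sterol-regulated genes lie right of 0, and 14 of 16 distal genes lie left of it between MYO5B-knockout and control mice.

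For each tested member, the gene outside the set with the most similar profile was found by Pearson r of log2(FPKM + 0.1) over the 10 libraries among 10566 genes. The pattern of Npc1l1 was most like that of Slc36a1, an amino acid transporter gene (r = 0.99), and that of Slc10a2 most like that of Foxa1 (r = 0.987). Slc51a was most like Cox7a1 (r = 0.969), Slc51b most like Fas (r = 0.975), Soat2 most like Adh6a (r = 0.977) and Fabp6 most like Tmem106c (r = 0.929). Abcg5 was most like Inpp5k (r = 0.958), Abcg8 most like Mllt6 (r = 0.976) and Abca1 most like Fam120aos (r = 0.974). The libraries share depth and detection differences, and these values describe likeness in these 10 libraries. Each is the highest of 10566 r, so the choice itself makes it high. Over the 8 libraries the r of these same pairs, chosen over all 10, lay between 0.868 and 0.994. All these r pool the 3 groups, so the differences from control given above enter them, and likeness within a group was not tested. Among the members, Npc1l1, Soat2, Slc51a and Slc51b had r between 0.82 and 0.92 with each other over the 8 libraries, against 0.61 to 0.92 over all 10. Slc10a2 had r between -0.906 and -0.735 with them over the 8 libraries, again with the groups pooled. Over all 10 libraries the r of Slc10a2 was -0.76 with Slc51a, -0.25 with Slc51b, -0.14 with Npc1l1 and -0.029 with Soat2.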

How the data were processed

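Jejunal epithelial cells were isolated mechanically in EDTA and poly(A) RNA was sequenced. The authors deposited FPKM per gene, and the submitters' processing notes name STAR 2.5, TopHat, HTSeq 0.6.1, DESeq2 and GRCm38/mm10. No scaling between libraries is stated. Multiplied by the deposited gene length, 99.8% to 99.99% of values were whole multiples of 1 read (tolerance 0.01). The recovered counts matched all 63 counts compared, from the authors' deposited comparison of LPA-treated with MYO5B-knockout mice (63 of 63). Recovered counts of control mice were not compared with deposited ones. A read is worth 0.0409 to 0.0913 FPKM on a 1 kb gene.

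Groups follow the labels, and LPA-treated mouse 1, whose description names both vehicle and LPA, was placed by its title. Genes averaging 0.1 FPKM or more (15729) were tested on log2(FPKM + 0.1) in a single limma fit to all 3 groups with an intensity trend (limma 3.58.1, R 4.3.3, two-sided, Benjamini-Hochberg). Fold changes on this scale understate those of low genes. Ratios were compared by exact permutation. Alternatives were other pseudocounts, filters and scalings, left-out mice, and edgeR 4.0.16 and DESeq2 1.42.0 on recovered counts. The labels do not name litters, so p-values measure the spread between these mice. The members and gene lists were chosen with earlier results of these data known. Named list genes are those past adjusted p 0.05 in any comparison, or else the 3 most abundant; Rxra, Cyp3a11, Sqle and Nr1h4 were added after their values were seen. Columns of the authors' own comparisons and enrichments (fold changes, p-values) were not used. Some listed genes are not reported here, and list counts leave them out. A symbol with 2 rows (Malrd1) was read from the more abundant. Upstream sequences are RefSeq's (GRCm38.p6).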

Additional observations from a re-analysis of the deposited data

Results flagged for a closer look

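In the group of 4 MYO5B-knockout mice, 21 values were examined for a mouse whose gap to the nearest other exceeds 0.829 of the group's range, and 6 did; chance flags about 1 in 20. The groups of 3 cannot be examined this way. Of the 6, 5 belonged to mouse 3: Fabp6 at 11.1 FPKM against 1.12 to 2.30 in the other knockout mice, an Abcg5/Abcg8 ratio of 2.07 against 1.44 to 1.52, 12601 detected genes, 18.0% mitochondrial reads, and Xist at 8.41 FPKM. Without mouse 3, Fabp6 overlapped with control mice as before. The Abcg5/Abcg8 ratio of the other 3 knockout mice lay below all control ratios of 2.06 to 2.40, but mouse 3 was flagged on this same ratio. Over all libraries the ratios did not pass (exact permutation p = 0.114, adjusted 0.229). The summed FPKM of the pancreas, liver and blood markers stood apart in mouse 7, at 51.3, most of it Alb at 47.8 FPKM; the pancreatic markers Prss2 and Cela3b had 0 reads in every library. The part of these values in the members' differences was not tested.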

How the results depend on the processing

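Of 576 values of the members under alternatives, 489 kept their direction and side of the threshold, 29 passed only under an alternative and 58 changed sign. No member passed over all libraries in any comparison, so these counts cannot show whether a pass would have been lost or reversed.

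The count of genes passing between MYO5B-knockout and control mice was 188 without the filter on low values, 598 after median-ratio scaling, 804 after quantile normalization, 778 over the 8 libraries, 1274 without also LPA-treated mouse 1 and 1854 by DESeq2. Between LPA-treated and control mice it was 626 after quantile normalization, 1346 over the 8 libraries, 1899 without also LPA-treated mouse 1 and 1503 by DESeq2. Between the 2 knockout groups it was 197 without those 3 libraries and 6 by DESeq2. Leaving out 1 mouse gave 44 to 403, 73 to 702 and 0 in the 3 comparisons.

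Signs changed as follows between LPA-treated and MYO5B-knockout mice. Over the 8 libraries the log2 fold changes were -0.24 for Slc10a2, 0.10 for Slc51a, -0.28 for Slc51b, -0.28 for Abcg8 and -0.066 for Soat2. Without the 2 libraries that went against the label male, and likewise without all 3, they were -0.30, 0.25, -0.090, -0.58 and -0.024. Slc51b was -0.12 by edgeR and -0.098 by DESeq2, and Soat2 was -0.021 after quantile normalization. Between MYO5B-knockout and control mice, Abcg8 was -0.29 after median-ratio scaling, -0.10 after quantile normalization, -0.13 over the 8 libraries, without all 3 and by edgeR, and -0.16 by DESeq2. Without the 2 libraries against the label, Abcg5 was 0.021 and Abca1 0.23. Between LPA-treated and control mice, Fabp6 was 0.16 over the 8 libraries. Abcg5 was -0.28 over the 8 libraries, -0.35 without all 3, -0.045 by edgeR and -0.069 by DESeq2. Abcg8 was -0.056 after median-ratio scaling, -0.41 over the 8 libraries, -0.71 without all 3, -0.098 by edgeR and -0.13 by DESeq2.

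Leaving out 1 mouse gave, between MYO5B-knockout and control mice, -1.18 to 0.37 for Abca1, -1.10 to 0.021 for Abcg5 and -0.72 to 0.59 for Abcg8. Between the knockout groups it gave -0.28 to 0.84 for Abcg8, -0.24 to 1.02 for Slc10a2, -0.15 to 0.12 for Slc51a, -0.28 to 0.55 for Slc51b and -0.066 to 0.23 for Soat2. Between LPA-treated and control mice it gave -0.28 to 0.75 for Abcg5, -0.41 to 0.71 for Abcg8 and -1.37 to 0.37 for Fabp6. Without MYO5B-knockout mouse 3 alone, Slc51a passed against control in both knockout groups (-1.13 and -1.03; limma's adjusted p = 0.0431 and 0.0421) and Npc1l1 in LPA-treated mice (-2.53; limma's adjusted p = 0.0448). The causes of these changes were not tested.

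Mouse numbers were used only as names of mice. The deviations of same-numbered control and LPA-treated mice had correlations of 0.104 and -0.355. Those of differently numbered mice lay between -0.409 and 0.44. So few pairs cannot show whether a number stands for a shared litter or day. With the number as a replicate block, 0 genes passed between LPA-treated and control mice in limma (3741 at an unadjusted p under 0.05), Abcg5 was -0.35 and Abcg8 -0.71. MYO5B-knockout mice share fewer than 2 numbers with either other group. With 3 or 4 mice a group and 0 to 104 reads for Slc10a2 and Fabp6 in a library, the data leave room for any difference inside the intervals given.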
